A study of Mus musculus with 2 samples.

Results

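The genes described here are the 37 genes of the mouse mitochondrial genome, chosen as every gene of the deposited tables whose GENCODE symbol starts with mt-. They make up 37 of the 43346 gene entries, and all 37 lie on the mitochondrial chromosome of mm10 (GRCm38). By annotation they are 13 mRNAs, 2 rRNAs and 22 tRNAs.

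Polyadenylated RNA, depleted of rRNA and longer than 200 nucleotides, was sequenced from embryonic limb as strand-specific paired reads. The only group was C57BL/6J limb at embryonic day 14.5, with no transgene or treatment named in the labels, and it holds 2 biological replicates. Each replicate is a pool of male and female littermates; both carry the same donor identifier and different biosample identifiers. Neither the litters behind the 2 pools nor the limbs taken are given. Intervals for pairs of genes therefore reflect just the spread of these samples, part of which may be technical. The p-values of the exact binomial test used below reflect counting error only.

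Gene entries held 110172148 expected counts in replicate 1 and 103363136 in replicate 2. An expected count is the number of reads the authors' program assigned to a gene after dividing reads that match several genes. All 9 limb markers (among them Prrx1, Tbx5, Pitx1 and Col2a1) were at 26.1 TPM or more in both libraries, where TPM is the deposited abundance, scaled by effective length and summing to the same total in each library. Of 6 markers of liver, heart, lung and forebrain, the liver genes Afp and Alb reached 1 TPM in both, Afp at 19.6 and 23.6 TPM and Alb at 5.70 and 1.10 TPM in replicates 1 and 2. The globin genes Hba-a2 and Hbb-bs stood between 6003 and 8689 TPM, as transcripts of red blood cells present in both libraries.

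Mitochondrial DNA encodes core subunits of the respiratory chain complexes I, III and IV and of the ATP synthase (complex V), together with the rRNAs and tRNAs of the mitochondrion's own ribosome. Both strands are transcribed as long precursors, and the tRNAs that lie between most of the other genes are cut out, which frees the mRNAs and rRNAs. Most mRNAs then receive a short poly(A) tail, which completes the stop codon where the gene itself ends on a T. Copies of stretches of this DNA have also been inserted into nuclear chromosomes in the course of evolution, where they are annotated as pseudogenes.

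The smallest of the mRNAs, mt-Atp8 (ENSMUSG00000064356.3), encodes a small membrane subunit of the ATP synthase and has an annotated length of 204 nucleotides on the plus strand at chrM:7766-7969. Its sequence is shown whole because the values that follow turn on this length. The 43 capitals mark the bases it shares with mt-Atp6, the gene of the proton-channel subunit of the same complex, whose reading frame starts inside that of mt-Atp8. This and all other sequences are those of GENCODE M21 transcripts on GRCm38.
mt-Atp8: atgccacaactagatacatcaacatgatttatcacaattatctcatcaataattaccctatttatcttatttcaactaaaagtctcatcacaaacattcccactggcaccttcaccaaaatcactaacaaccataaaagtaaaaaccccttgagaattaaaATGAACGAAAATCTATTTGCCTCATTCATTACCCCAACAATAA

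Shorter overlaps join mt-Nd4l and mt-Nd4 over 7 nucleotides, mt-Atp6 and mt-Co3 over 1 nucleotide, and mt-Nd5 and mt-Nd6, which lie on opposite strands, over 14 nucleotides. Of the 13 annotated mRNAs, 3 end on an incomplete stop codon, and the other 10 end on a whole stop codon. The last 18 bases of these 3, mt-Co3 (chrM:9373-9390), mt-Nd4 (chrM:11527-11544) and mt-Cytb (chrM:15271-15288), are shown beside those of mt-Co1 (chrM:6855-6872), mt-Co2 (chrM:7679-7696) and mt-Nd5 (chrM:13548-13565), all on the plus strand. Capitals mark the single T left of the stop codon in the first 3 and the whole stop codon in the others.
mt-Co3: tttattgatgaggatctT
mt-Nd4: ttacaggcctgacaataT
mt-Cytb: tactaaaattatatccaT
mt-Co1: tatgtaaaagtaaaaTAA
mt-Co2: tctgcttcaataattTAA
mt-Nd5: tcaattaatctcgagTAA

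The mitochondrial genes took 1.45% of the gene counts in replicate 1 (95% Wilson interval 1.444 to 1.449%) and 1.62% in replicate 2 (1.617 to 1.622%), a mean of 1.53% ± 0.122 (SD, n = 2). These intervals cover counting error only, since reads without molecular identifiers are not independent molecules. Of the deposited TPM they took 6.23% and 7.01%, a mean of 6.62% ± 0.547 (SD, n = 2). The share of TPM was thus several-fold the share of counts in both libraries. In bulk tissue, fewer cells with many mitochondria and less mitochondrial RNA per cell cannot be told apart, so a share says nothing on either alone.

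By class, the 13 mRNAs held 97.4% and 98.1% of the mitochondrial counts in replicates 1 and 2, and the 2 rRNAs held 2.59% and 1.90%. No tRNA had a count. In TPM the mRNAs held 99.2% and 99.4% of the mitochondrial sum. The rRNA counts came to 2.66% and 1.94% of the mRNA counts. Both rRNAs are made in large amounts for the mitochondrial ribosome, and the selection for poly(A) and the rRNA depletion given in the labels act on this class; how much each removed was not tested.

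mt-Rnr1 (ENSMUSG00000064337.1, chrM:70-1024, plus strand, 955 nucleotides), the rRNA of the small mitochondrial ribosomal subunit, had 271 TPM in replicate 1 and 242 TPM in replicate 2. mt-Rnr2 (ENSMUSG00000064339.1, chrM:1094-2675, plus strand, 1582 nucleotides), the rRNA of the large subunit, had 250 and 206 TPM. Both rRNAs lay below the lowest mRNA, mt-Nd3, in TPM in both libraries. By counts per kilobase of annotated length (CPM per kb, where CPM is the count scaled to the same library total over gene entries) the order turned: mt-Rnr1 had 146 and 125 and mt-Rnr2 149 and 120 in replicates 1 and 2, above mt-Nd3 at 131 and 80.2 and mt-Nd4l at 116 and 74.4. This turn rests on how reads were divided with nuclear copies, described below. With their counts added, mt-Nd3 had 365 and 564 CPM per kb and mt-Nd4l 556 and 726. The lowest mRNA was then mt-Nd6 at 248 and 184, above both rRNAs in both libraries. The log2 difference of mt-Rnr2 over mt-Rnr1 was -0.17 with a 95% interval of -0.74 to 0.39, from limma's moderated variances on log2(TPM + 1), so a difference between the rRNAs was not detectable with 2 libraries.

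All 22 tRNA genes had 0 counts, 0 TPM and an effective length of 0 in both libraries. The effective length is the length the authors' program divides by to make TPM. No upper limit is drawn from these zeros, because every one of these entries has an effective length of 0. The tRNA genes are annotated at 59 to 75 nucleotides, below the size limit of 200 nucleotides for the RNA. The shortest, mt-Ts2 (a serine tRNA, chrM:11613-11671, plus strand), and the longest, mt-Tl1 (a leucine tRNA, chrM:2676-2750, plus strand), are printed to show this size.
mt-Ts2: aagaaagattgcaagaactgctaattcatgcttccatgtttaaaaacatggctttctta
mt-Tl1: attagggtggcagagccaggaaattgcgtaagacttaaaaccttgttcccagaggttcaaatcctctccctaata

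An effective length of 0 was not particular to the tRNAs: 5476 and 5458 gene entries had it in replicates 1 and 2, the longest of them at 150 and 148 nucleotides, and 30 and 19 of these held counts. The mitochondrial tRNA zeros therefore give no level for these genes. The read length listed for both samples also exceeds the length of every mitochondrial tRNA gene. What part the size selection had in these zeros was not tested.

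For longer genes the effective length was the annotated length less a constant. Over 10217 single-transcript entries of at least 1000 nucleotides the gap was 198.95 nucleotides in replicate 1 and 226.07 in replicate 2, without exception. A gap of this size is small against mt-Nd5 (1824 nucleotides) and takes up nearly all of mt-Atp8. The effective length of mt-Atp8 was 13.9 nucleotides in replicate 1 and 7.49 in replicate 2. For mt-Nd4l (297 nucleotides) it was 99.2 and 72.6, for mt-Nd3 (348 nucleotides) 150 and 123, and for mt-Nd6 (519 nucleotides) 320 and 293 nucleotides in replicates 1 and 2.

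To see what this division does, TPM was set against CPM per kb, which divides by the annotated length instead. The ratio of TPM to CPM per kb had a median of 1.58 in replicate 1 and 1.61 in replicate 2 over the 4003 and 3964 single-transcript entries of at least 1000 nucleotides and 100 counts, called long genes here. For mt-Nd5 the ratio was 1.65 and 1.69, close to that median. For mt-Nd4l it was 4.40 and 6.06, and for mt-Atp8 21.6 and 40.3. The plot of this ratio against length shows it falling steadily from mt-Atp8 to mt-Nd5, with replicate 2 above replicate 1 at every gene.

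**Figure D1:**
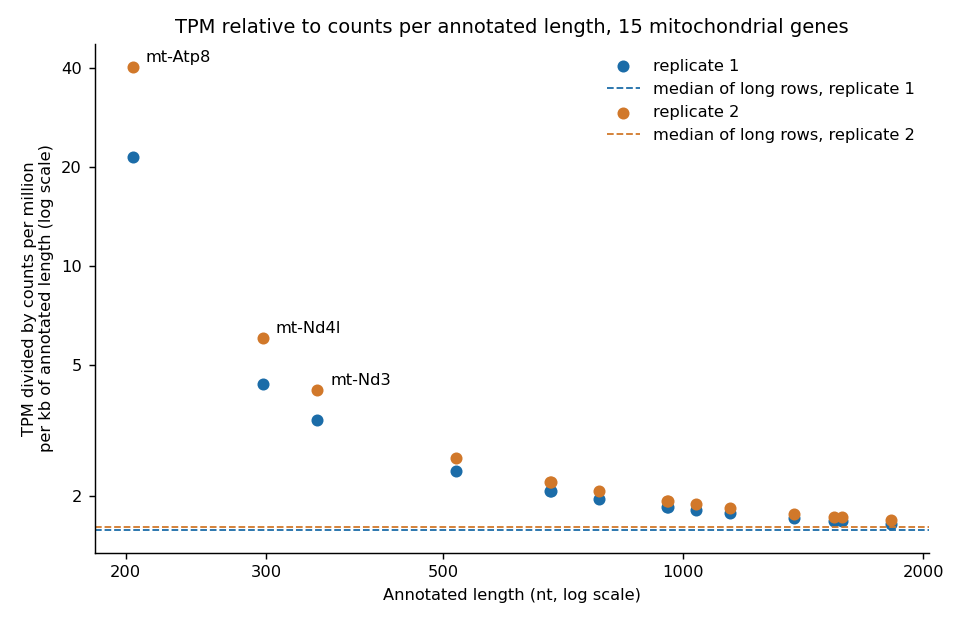
Ratio of deposited TPM to CPM per kilobase of annotated length (y axis, log scale) against annotated length in nucleotides (x axis, log scale) for the 13 mitochondrial mRNAs and 2 rRNAs, 1 point per gene and library. The dashed lines mark the median of long genes, 1.58 in replicate 1 and 1.61 in replicate 2; mt-Atp8 stands far above them, at 21.6 and 40.3.

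mt-Atp8 was the highest of all gene entries by TPM in both libraries, at 36944 TPM in replicate 1 and 40517 TPM in replicate 2. Its counts were 38518 and 21191, and its CPM per kb 1714 and 1005. Replicate 2 was thus the higher library in TPM and the lower library in counts. Without mt-Atp8 the remaining 36 genes took 2.54% and 2.96% of all TPM in replicates 1 and 2, in place of 6.23% and 7.01%, while their share of counts was 1.41% and 1.60%. Among all entries with counts and an effective length above 0 and below 20 nucleotides, 59 in replicate 1 and 52 in replicate 2, mt-Atp8 alone made up 89.1% and 95.4% of the TPM.

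The ATP synthase as a whole shows the same gap between scales. Its mitochondrial subunits mt-Atp6 and mt-Atp8 held 63.7% and 63.6% of the mitochondrial TPM in replicates 1 and 2 and 8.75% and 8.94% of the mitochondrial counts. Complex IV, the cytochrome c oxidase that reduces oxygen, held 19.0% and 20.2% of the TPM and 45.9% and 49.2% of the counts from 3 genes. The complexes thus trade places between the scales. Complex I, the NADH dehydrogenase, held 10.9% and 10.2% of the TPM and 27.5% and 25.8% of the counts from 7 genes. Complex III, with mt-Cytb alone, held 5.50% and 5.30% of the TPM and 15.3% and 14.2% of the counts. The complex with the largest share was therefore V by TPM and IV by counts, in both libraries.

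**Figure D2:**
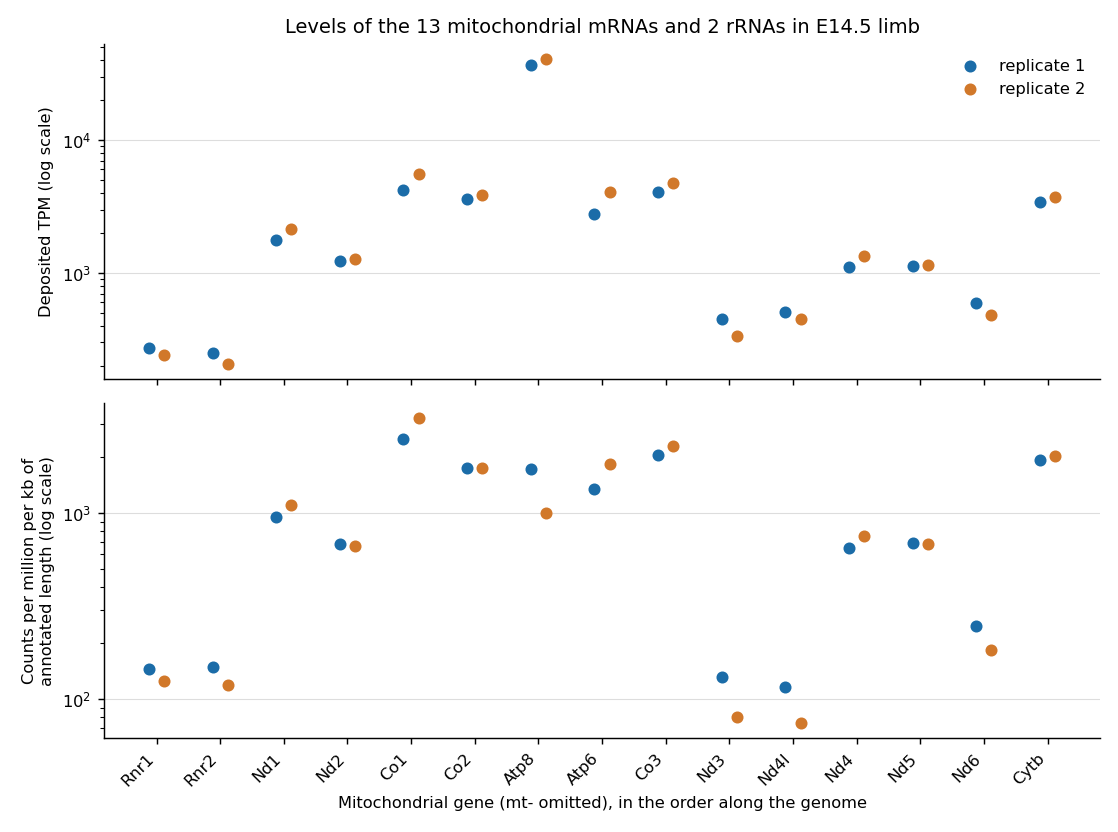
Deposited TPM (upper panel, log scale) and CPM per kilobase of annotated length (lower panel, log scale) of the 2 rRNAs and 13 mRNAs in the order along the genome, 1 point per library. mt-Atp8 stands at 36944 and 40517 TPM above all others in the upper panel; in the lower panel it stands at 1714 in replicate 1, among the complex IV and V genes, and at 1005 in replicate 2, below them.

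Among the cytochrome c oxidase genes, mt-Co1 (ENSMUSG00000064351.1, chrM:5328-6872, plus strand), which encodes the catalytic subunit, had 4186 TPM in replicate 1 and 5589 TPM in replicate 2. mt-Co2 (chrM:7013-7696), whose product takes electrons from cytochrome c, had 3623 and 3841 TPM, and mt-Co3 (chrM:8607-9390), a core subunit without a redox centre, had 4042 and 4759 TPM. All 3 were higher in replicate 2 in TPM; the values of mt-Co1 and mt-Co3 overlapped, and mt-Co2 lay below both in each library. The log2 difference on log2(TPM + 1) was 0.37 for mt-Co1 over mt-Co2, with a 95% interval of -0.37 to 1.12, and 0.23 for mt-Co3 over mt-Co2, with an interval of -0.49 to 0.95; neither excluded 0. In log2 CPM per kb the interval of mt-Co1 over mt-Co2 did exclude 0 (0.70, 0.06 to 1.33). mt-Cytb (ENSMUSG00000064370.1, chrM:14145-15288), the haem-bearing subunit of complex III, had 3430 and 3714 TPM, overlapping mt-Co2.

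mt-Atp6 (ENSMUSG00000064357.1, chrM:7927-8607, plus strand) had 2793 TPM in replicate 1 and 4044 TPM in replicate 2. Against it, mt-Atp8 was 3.52 higher on the log2(TPM + 1) scale, with a 95% interval of 2.67 to 4.37; fitted without the filter on low values, the interval was -1.04 to 8.09 and took in 0. On log2 CPM per kb the same difference was -0.26, with an interval of -0.96 to 0.45, and its sign differed between the libraries (0.35 in replicate 1 and -0.86 in replicate 2). The 2 genes are carried on a single processed RNA, and whether their levels differ depends on the length used.

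The genes of complex I fell into 2 ranges. mt-Nd1 (chrM:2751-3707), at the quinone-binding end of the complex, had 1761 and 2143 TPM in replicates 1 and 2. mt-Nd2 (chrM:3914-4951), mt-Nd4 (chrM:10167-11544) and mt-Nd5 (chrM:11742-13565), which encode the antiporter-like subunits of the membrane arm, lay between 1117 and 1341 TPM. The lower range held mt-Nd3 (chrM:9459-9806) at 448 and 337 TPM, mt-Nd4l (chrM:9877-10173) at 513 and 451 TPM, and mt-Nd6 (chrM:13552-14070) at 590 and 484 TPM. In TPM these 3 were higher in replicate 1, and none of them overlapped the upper range. With the counts of nuclear copies added, neither the split nor the direction held for mt-Nd4l, whose CPM per kb then overlapped that of mt-Nd2, mt-Nd4 and mt-Nd5, and mt-Nd3 and mt-Nd4l were then higher in replicate 2.

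mt-Nd6 is the only mRNA gene on the minus strand, where 8 tRNA genes also lie. Its log2(TPM + 1) was 1.09 below that of mt-Nd5, which it overlaps on the other strand (log2 difference -1.09, 95% interval -1.71 to -0.47). Against mt-Cytb, its neighbour on the other side, the difference was -2.74 (-3.40 to -2.07). On log2 CPM per kb, which takes the whole annotated length, the 2 differences were larger, -1.67 (-2.24 to -1.10) and -3.20 (-3.79 to -2.60). Their size thus depends on the length used, and which scale is nearer the true level of a short gene was not tested. All these values are levels in RNA selected for poly(A), and how far this selection affected mt-Nd6 was not tested. mt-Nd4l, which overlaps mt-Nd4, was lower than it, with log2 differences of -1.35 (-1.97 to -0.72) in TPM and -2.90 (-3.50 to -2.30) in CPM per kb. The size of this difference rests on how reads were divided with nuclear copies, described below: with their counts added, mt-Nd4l had 556 and 726 CPM per kb and mt-Nd4 651 and 758 in replicates 1 and 2. The log2 difference of mt-Nd2 over mt-Nd1 was -0.64 (-1.30 to 0.02) in TPM, just short of the threshold, and -0.61 (-1.19 to -0.02) in CPM per kb, just past it.

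In the order of mean TPM the 13 mRNAs ran mt-Atp8, mt-Co1, mt-Co3, mt-Co2, mt-Cytb, mt-Atp6, mt-Nd1, mt-Nd2, mt-Nd4, mt-Nd5, mt-Nd6, mt-Nd4l and mt-Nd3. Of the 12 pairs of neighbours in this order, 3 differed beyond the spread of the libraries, with a 95% interval that left out 0: mt-Atp8 over mt-Co1 at a log2 difference of 2.999 (2.16 to 3.84), mt-Atp6 over mt-Nd1 at 0.79 (0.04 to 1.54), and mt-Nd5 over mt-Nd6 at 1.09 (0.47 to 1.71). The 9 others did not, with log2 differences from 0.03 to 0.64. Without the filter on low values only mt-Nd5 over mt-Nd6 was still told apart, and the interval of mt-Atp8 over mt-Co1 was -1.62 to 7.61. Cut at the 3 pairs told apart with the filter, the order in TPM gave steps. These were mt-Atp8, then the 5 genes from mt-Co1 to mt-Atp6, then the complex I genes from mt-Nd1 to mt-Nd5, then mt-Nd6, mt-Nd4l and mt-Nd3. Within a step the neighbours were not told apart at 2 libraries. Neighbours were picked by these same TPM values. Apart from mt-Co1 over mt-Co2, genes further apart in a step were not compared, so a step is not a set of equal levels. In CPM per kb the steps differed: mt-Atp6 over mt-Nd1 was not told apart (0.61, -0.01 to 1.24), while mt-Nd1 over mt-Nd2 (0.61, 0.02 to 1.19) and mt-Nd6 over mt-Nd4l (1.19, 0.59 to 1.79) were.

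By CPM per kb the order was mt-Co1, mt-Co3, mt-Cytb, mt-Co2, mt-Atp6, mt-Atp8, mt-Nd1, mt-Nd4, mt-Nd5, mt-Nd2, mt-Nd6, mt-Nd3 and mt-Nd4l, and 10 of the 13 genes changed rank. On this scale mt-Atp8 was lower than mt-Co1, with a log2 difference of -1.11 (-1.82 to -0.40). The highest mRNA stood 98.7-fold above the lowest by mean TPM, 12.5-fold without mt-Atp8, and 29.9-fold by mean CPM per kb. On both scales the 4 genes of complexes III and IV and mt-Atp6 stood above every complex I gene.

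A second feature bears on these levels. In 7 of the 13 mRNAs the deposited tables divide reads with a nuclear copy, an unprocessed pseudogene of near-identical sequence in a block on the minus strand of chromosome 1 between 24611535 and 24616197 (GRCm38). Of the 8 pseudogene entries examined, 7 matched a mitochondrial transcript. These are Gm28439 (mt-Nd4), Gm28437 (mt-Co3), Gm28661 (mt-Co2), Gm10925 (mt-Atp6), Gm10222 (mt-Nd4l), Gm28438 (mt-Nd3) and Gm29216 (mt-Co1). The remaining entry, Gm10288 on chromosome 3, had no match, and its 1480 and 936 counts were not used.

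In 5 of the 7 pairs the copy had no base that differs from the mitochondrial gene over its whole length. The ends of mt-Co2 (chrM:7673-7696, plus strand) and of Gm28661 (chr1:24614885-24614905, minus strand) are shown as an example of these 5: the copy is annotated as 681 nucleotides against 684 in the mitochondrial gene, and the capitals mark the stop codon, the only bases that the copy's entry does not hold.
mt-Co2: aactgatctgcttcaataattTAA
Gm28661: aactgatctgcttcaataatt

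Gm28438 differs from mt-Nd3 at 1 of 345 positions. The first 24 bases of mt-Nd3 (chrM:9459-9482, plus strand) and of Gm28438 (chr1:24613096-24613119, minus strand) show this change, T3C, counted from 1 at the 5′ end of the mitochondrial gene, with the mitochondrial base first and the copy's base last; the capital marks it.
mt-Nd3: atTaacctgtacactgttatcttc
Gm28438: atCaacctgtacactgttatcttc

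Gm29216 covers the last 492 nucleotides of mt-Co1, and all 6 changes lie close to its start. They are T1056A, C1057T, A1059G, A1060G, C1062A and A1066T, counted in the same way, and are marked by capitals in the 24 bases from position 1054 of mt-Co1 (chrM:6381-6404, plus strand) and in the first 24 bases of Gm29216 (chr1:24616174-24616197, minus strand). Beyond them the sequences are identical to the end of the gene.
mt-Co1: ggTCtAAcCggaAttgttttatcc
Gm29216: ggATtGGcAggaTttgttttatcc

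The division of counts differed from gene to gene. mt-Nd4, which runs 502 nucleotides past the end of its copy, was given 99.9% of the summed counts of the pair in both libraries. mt-Co1, 1545 nucleotides long, was given 83.8% and 86.7% in replicates 1 and 2. mt-Co2 was given 76.5% and 76.7%, mt-Co3 58.4% and 71.0%, and mt-Atp6 55.4% and 66.0%. The smallest shares went to mt-Nd3, with 35.9% and 14.2%, and to mt-Nd4l, with 20.9% and 10.3%. The share of mt-Co3 and mt-Atp6 was higher in replicate 2, and that of mt-Nd3 and mt-Nd4l lower.

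**Figure D3:**
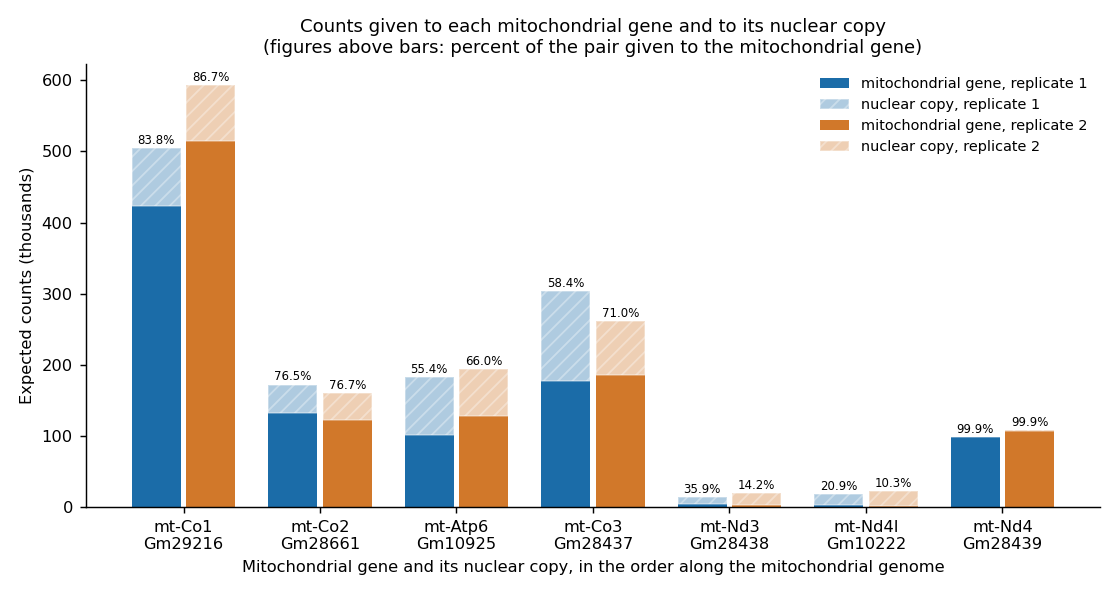
Expected counts (y axis, in units of 1000) given to each mitochondrial gene (solid) and to its nuclear copy (hatched, stacked on top) in replicate 1 (blue) and replicate 2 (orange), for the 7 pairs in the order along the mitochondrial genome. The percentages above the bars are the part of the pair given to the mitochondrial gene, from 99.9% for mt-Nd4 to 10.3% for mt-Nd4l in replicate 2.

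The tables also give a posterior standard deviation (SD) of each count. In all 7 pairs it was the same for the mitochondrial gene and its copy in both libraries, to within 0.1 counts. It came to 22.2% and 13.9% of the count of mt-Co3 in replicates 1 and 2, 14.6% and 10.01% for mt-Atp6, 8.25% and 12% for mt-Nd3, 10.7% and 12.8% for mt-Nd4l, and 7.02% and 5.02% for mt-Co2. For mt-Co1 it was 0.0766% and 0.0674%, and for mt-Nd4 smaller still. The 8 members with counts and without an entry for such a copy, among them mt-Atp8, mt-Cytb and both rRNAs, had a posterior SD of at most 0.05 counts. For mt-Atp8 this need not mean that no copy exists, as it starts between mt-Co2 and mt-Atp6. Between the copies of these 2 genes, the chromosome 1 block has a stretch from 24614651 to 24614885 without an entry examined here. Whether that stretch holds mt-Atp8 sequence was not tested. The posterior mean TPM of mt-Co3 was 3669 in replicate 1 and 4184 in replicate 2, with deposited lower and upper bounds of 2479 and 5397 in replicate 1 and of 3313 and 5331 in replicate 2; the level of these bounds is not given in the file headers. In each library the TPM of mt-Co2 and of mt-Cytb lay inside the bounds of mt-Co3.

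The 7 copies held 353558 counts in replicate 1 and 295652 in replicate 2, or 0.321% and 0.286% of the gene counts, so the mitochondrial genes and copies together took 1.77% and 1.91%. With the counts of each copy added to its gene, mt-Nd3 stood at 365 and 564 CPM per kb in replicates 1 and 2, against 131 and 80.2 without the copy, and mt-Nd4l at 556 and 726, against 116 and 74.4. The order by CPM per kb then ran mt-Co3, mt-Co1, mt-Atp6, mt-Co2, mt-Cytb, mt-Atp8, mt-Nd1, mt-Nd4, mt-Nd5, mt-Nd2, mt-Nd4l, mt-Nd3 and mt-Nd6, with a span of 15.6-fold. mt-Nd6, which has no such copy, was then the lowest mRNA at 248 and 184 CPM per kb. Whether the reads came from mitochondrial or nuclear transcripts cannot be told apart where the sequences are identical. A further 8 pseudogenes with 90.7 to 97.6% identity to a mitochondrial gene held 195 counts or fewer each.

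The rounded counts of replicates 1 and 2 were then compared for each gene by an exact binomial test (two-sided). Benjamini-Hochberg adjustment was made over all 20396 gene entries with at least 10 counts. The test compares these libraries, not conditions, and covers counting error only. Of the 15 mitochondrial genes with counts, 12 were called, 6 higher and 6 lower in replicate 2, where 60.0% of all entries were called, 30.0% higher and 30.0% lower. With so many entries called, the count says little of the mitochondrial genes. With a null widened by the common dispersion of edgeR (0.0381) 0 of the 15 were called, against 0.961% of all entries, 0.260% higher and 0.701% lower; 0 of the 15 had an unadjusted p under 0.05 there. That dispersion was estimated from the difference between these same 2 libraries. A ratio of the usual size could therefore hardly be called, and no conclusion is drawn from the 0. The median absolute log2 ratio of the 15 was 0.24, against 0.26 over all entries and 0.19 over the 5299 entries with at least 10000 counts, a level that 13 of the 15 reached.

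The genes called higher in replicate 2 by counts scaled by TMM were mt-Atp6 at a log2 ratio of 0.46, mt-Co1 at 0.40, mt-Nd1 and mt-Nd4 at 0.24 each, mt-Co3 at 0.18 and mt-Cytb at 0.08. Those called lower were mt-Atp8 at -0.75, mt-Nd3 at -0.69, mt-Nd4l at -0.63, mt-Nd6 at -0.41, mt-Rnr2 at -0.29 and mt-Rnr1 at -0.20. The 4 shortest mRNAs were thus the 4 lowest ratios. mt-Nd2, mt-Co2 and mt-Nd5 were not called (adjusted p of 0.780, 0.0912 and 0.809 by the exact test, log2 ratios of -0.0029, 0.01 and -0.0019). In TPM the log2 ratio of mt-Atp8 was 0.13, of opposite sign to its counts, and those of mt-Nd4l and mt-Nd3 were -0.19 and -0.41.

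Nuclear genes of the same lengths moved between the libraries too. The median log2 ratio of counts, replicate 2 over replicate 1, was -1.04 over 16 nuclear genes of 200 to 300 nucleotides, -0.28 over 51 genes of 300 to 400, -0.25 over 174 genes of 400 to 600 and 0.03 over 3130 genes of 2000 nucleotides or more, each with at least 100 counts. mt-Atp8 and mt-Nd4l lay above the median of their length range and mt-Nd3 and mt-Nd6 below it. Adding the nuclear copies turned the ratio of mt-Nd3 to 0.65, that of mt-Nd4l to 0.40 and that of mt-Co3 to -0.10, so the direction of these 3 rests on how reads were divided. It left mt-Co1 at 0.35, mt-Atp6 at 0.21, mt-Nd4 at 0.24 and mt-Co2 at 0.01.

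**Figure D4:**
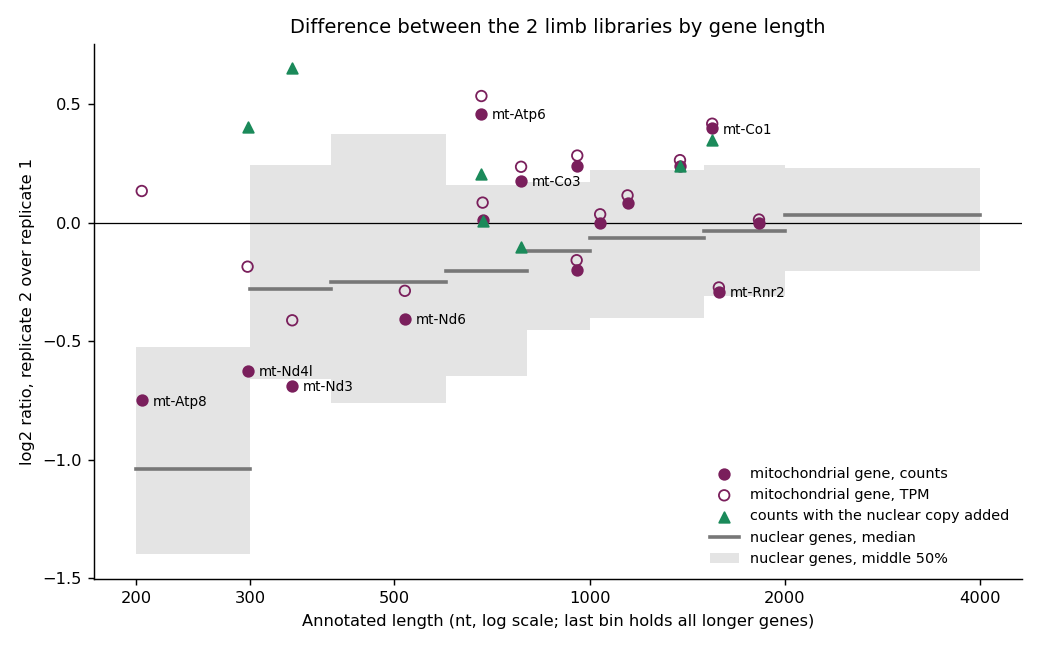
The log2 ratio of replicate 2 over replicate 1 (y axis) against annotated length in nucleotides (x axis, log scale) for the mitochondrial genes by counts (filled circles), by TPM (open circles) and by counts with the nuclear copy added (triangles). Grey lines and bands give the median and the middle 50% of nuclear genes in each length range; the shortest mitochondrial mRNAs sit low by counts, mt-Atp8 at -0.75, and nuclear genes of that length range have a median of -1.04.

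Each respiratory complex that holds mitochondrial subunits also holds nuclear ones, so both were set side by side as CPM per kb; for nuclear genes with several transcripts the deposited length is a weighted mean. Nuclear genes were placed in a complex by symbol alone, and the list did not hold Ndufab1. In complex I the mitochondrial genes had medians of 651 and 667 in replicates 1 and 2, and the 36 nuclear genes with Nduf symbols 73.0 and 53.5. The nuclear median was the lower one in both libraries, and so it was in the other complexes. In complex III mt-Cytb had 1929 and 2013 and the 9 nuclear subunits at 1 TPM or more had medians of 137 and 103. In complex IV the medians were 2054 and 2287 for the mitochondrial genes and 137 and 118 for 15 nuclear subunits, and in complex V 1530 and 1415 for the mitochondrial genes and 136 and 110 for 17 nuclear subunits. In complexes III, IV and V no detected nuclear subunit exceeded the lowest mitochondrial one by mean CPM per kb. Of the 36 Nduf genes, 6 exceeded mt-Nd4l, led by Ndufa4 at 185, whose place in complex I rests on its symbol alone. With the nuclear copies added, the lowest mitochondrial gene of complex I was mt-Nd6 at a mean of 216, above all 36.

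**Figure D5:**
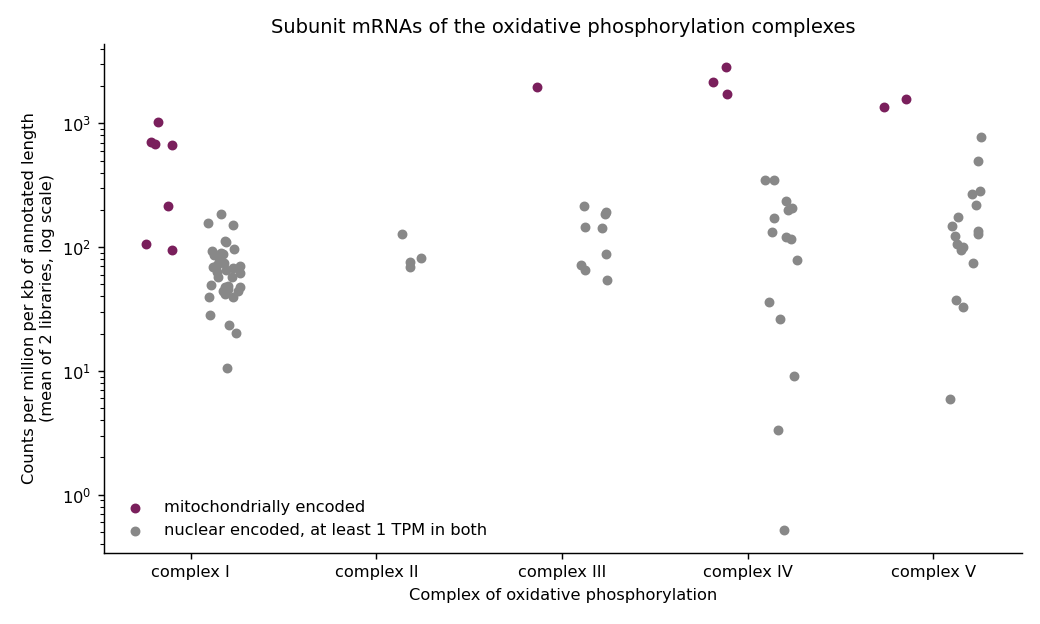
Mean CPM per kilobase of annotated length over the 2 libraries (y axis, log scale) of each mitochondrially encoded subunit gene (purple, left) and each nuclear subunit gene at 1 TPM or more in both libraries (grey, right), by complex. Nuclear genes are placed in a complex by symbol alone, and complex II has nuclear subunits only. In complexes III, IV and V the mitochondrial genes lie above every nuclear subunit plotted, and in complex I they reach down among them to mt-Nd4l at 95.4.

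The list of nuclear subunits of oxidative phosphorylation held 87 entries, of which 6 are pseudogenes by symbol. All 81 subunit genes reached 1 TPM in both libraries and none of the 6 pseudogenes did, where 33.8% of all gene entries did. The 87 together took 0.868% and 0.785% of the gene counts in replicates 1 and 2, less than the mitochondrial genes' 1.45% and 1.62%. The highest were Atp5b, the catalytic beta subunit of the ATP synthase, at 1070 and 1707 TPM, the alpha subunit gene Atp5a1 at 741 and 900 TPM, and the complex IV genes Cox6a1 at 750 and 887 TPM and Cox4i1 at 846 and 601 TPM. By the exact test 21 of the 81 tested were called higher and 57 lower in replicate 2, where 30.0% of all entries were called each way; with the widened null 0 were called higher and 1 lower, against 0.260% and 0.701% of all entries. Their median log2 ratio was -0.22, against -0.01 over all entries. Of the 81, 48 were 300 to 800 nucleotides long, and nuclear genes of that length had medians of -0.28, -0.25 and -0.21 over ranges of 300 to 400, 400 to 600 and 600 to 800 nucleotides. The 5 called past 2-fold by the exact test, Ndufs5, Ndufa5, Uqcrb, Atp5k and Cox7a1, had log2 ratios from -1.62 to -1.02. Of these, only Ndufa5 was called with the widened null, and Cox7a1 had just 29 and 12 counts in replicates 1 and 2. The effective length of Atp5b was 1386 nucleotides in replicate 1 and 852 in replicate 2, so its TPM differed where its counts were 111264 and 101574.

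Genes that transcribe mitochondrial DNA and process its RNA were all detected: 30 of 31 listed names had an entry, Fastkd4 having none under that name, and all 30 reached 1 TPM in both libraries, with a median of 17.7 and 15.4 TPM in replicates 1 and 2. Fastk, of a family of mitochondrial RNA-binding proteins, was highest at 245 and 325 TPM, followed by Hsd17b10, a subunit of the mitochondrial RNase P that cuts tRNA ends, at 82.2 and 77.2 TPM. Ssbp1, which binds single-stranded mitochondrial DNA, had 85.3 and 53.4 TPM, and Mterf3, a negative regulator of mitochondrial transcription, 66.3 and 58.8 TPM. By the exact test 3 of the 30 were called higher and 19 lower in replicate 2, where 30.0% of all entries were called each way, and their median log2 ratio was -0.16. With the widened null 0 were called, where 0.260% of all entries were called higher and 0.701% lower.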

How the data were processed

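The 37 genes, the nuclear gene lists, the pairs and the tests were chosen with earlier results of these data known. Every mitochondrial gene could be named, with the nuclear copies of at least 100 counts, the 4 highest genes of each nuclear list and list members called past 2-fold.

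Per the file headers, the authors deposited for each library expected counts, effective lengths, TPM, posterior mean TPM and posterior standard deviations of counts per gene. They were made on mm10 with GENCODE M4, per the text file deposited with them. The sources used here do not name the program. Symbols, coordinates and transcript sequences came from GENCODE M21 (GRCm38), joined by stable gene identifier; 884 entries had no match. ERCC spike-in entries (2.39% of the deposited counts in replicate 1, 2.36% in replicate 2), the phiX entry (1.35% and 1.94%) and the separate tRNA entries were kept out of library totals and tests, but TPM is as deposited and includes them.

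Expected counts were rounded for the exact binomial test, whose null share came from TMM library sizes (edgeR 4.0.16); entries with under 10 counts in both libraries together were not tested, ratios used a prior count of 0.5 and calls an adjusted p under 0.05. Pairs of genes were compared by an intercept-only limma fit (3.58.1) with a trend on log2(TPM + 1) over the 15055 genes whose mean reached 1 TPM, with intervals from the moderated variances of both genes and no adjustment over pairs. DESeq2 (1.42.0) size factors were an alternative. The steps were tested on simulated data.

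A planned genome search for nuclear copies was replaced by 8 named pseudogenes, because no genome sequence was used here. As a choice made after seeing the data, these and all other GENCODE M21 transcripts were compared with the mitochondrial transcripts by BLAST (2.17.0; at least 100 nucleotides and 90% identity). Intervals include neither the division of reads between copies nor any error of the short effective lengths.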

Additional observations from a re-analysis of the deposited data

How the results depend on the processing

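No paired analysis of samples was possible because they form a single group. The genes of a compared pair were measured in the same libraries. The intervals came from the moderated variances of both genes and did not use this pairing. A fit on the differences within each library was not run. The count of 12 mitochondrial genes called between the libraries was 12 to 14 under DESeq2 size factors, library totals, ERCC scaling, no count filter and added copies. It fell to 0 (0 higher, 0 lower) under the widened null, where 0 of 15 had an unadjusted p under 0.05. The width of that null was set by the same 2 libraries, so few calls could be made under it. That null also left 0 higher and 1 lower nuclear subunits, in place of 21 and 57. In the list for mitochondrial transcription, replication and RNA processing it left 0 higher and 0 lower, in place of 3 and 19. These nuclear alternatives and the order with copies added were chosen after seeing the data.

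The share of counts was 1.84% with copies added, and 1.45 to 1.62% leaving out 1 replicate. The share of TPM was 2.86% with mt-Atp8 left out of the mitochondrial sum and of the total, 3.09% by annotated length and 2.84% over genes of at least 300 nucleotides, and 6.23 to 7.01% leaving out 1 replicate. Of 13 mRNAs, 10 changed rank by annotated length, 9 by CPM with no length, 9 with copies added, 0 by posterior mean TPM and 2 to 5 leaving out 1 replicate. Without a filter on low values 1 of 12 neighbours was told apart, in place of 3, and by annotated length 4, with mt-Atp6 over mt-Nd1 lost. Without that filter mt-Atp8 was not told apart from mt-Co1 or mt-Atp6.

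Signs that turned between libraries concerned mt-Nd2 and mt-Nd5 under DESeq2 size factors (log2 ratios of 0.0021 and 0.0031), mt-Co2 under library totals (-0.010) and ERCC scaling (-0.00026), and mt-Co3, mt-Nd3 and mt-Nd4l with copies added (-0.10, 0.65 and 0.40). By annotated length the log2 differences of mt-Atp8 over mt-Co1 (-1.11) and over mt-Atp6 (-0.26), mt-Co2 over mt-Cytb (-0.18), mt-Nd2 over mt-Nd4 (-0.061) and mt-Nd4l over mt-Nd3 (-0.14) turned. Leaving out 1 replicate gave ranges of -0.12 to 0.30 for mt-Cytb over mt-Atp6, -0.087 to 0.14 for mt-Nd2 over mt-Nd4 and -0.023 to 0.23 for mt-Nd4 over mt-Nd5. The cause of these changes was not tested.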
